A study of Mus musculus with 8 samples.

Results

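The genes described here are 10 mouse genes of the insulin and feeding response of the liver: Igfbp1, Igfbp2, Insr, Irs1, Irs2, Foxo1, Foxo3, Sesn3, Srebf1 and Angptl8. Their rows were found by gene symbol in the deposited table of gene-level FPKM (sequenced fragments per length of transcript and per depth of library), and all 10 were among its 47719 genes. The set was chosen from measured values of all 8 libraries, so the levels and changes of the 10 genes are given as a description and nothing is supported with them. RNA was sequenced from whole liver of wild-type C57BL/6 mice in 3 groups. They were normal control mice aged 10 weeks (2 libraries), mice 2 days after extended hepatectomy, the removal of most of the liver (4 libraries), and mice 14 days after it (2 libraries). Per the design text the day 2 mice had received either EMC, as a treated control, or eLO, while at day 14 eLO is the sole treatment named. The sample labels do not state which day 2 library had which, so time after surgery, surgery and treatment cannot be told apart. The labels do not say that libraries came from separate mice, and p-values therefore measure the spread between these libraries, which may be technical. That spread was pooled over the 3 groups, so it also holds any difference in treatment or state among the day 2 libraries.

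Insulin binds the receptor encoded by Insr, and the adaptor proteins encoded by Irs1 and Irs2 pass the signal to PI3-kinase and the kinase Akt. Akt phosphorylates the FoxO transcription factors and holds them out of the nucleus. In the fasted liver, nuclear FoxO drives genes such as Igfbp1, Irs2 and Sesn3, and feeding shuts them down. Insulin also raises transcription of Srebf1, which encodes the activator of fatty acid synthesis genes, and of Angptl8, a secreted protein made after meals that takes part in inhibiting lipoprotein lipase. By textbook role, 7 genes were classed as insulin-repressed (Igfbp1, Igfbp2, Insr, Irs2, Foxo1, Foxo3, Sesn3) and 2 as insulin-induced (Srebf1, Angptl8), and Irs1 was put in neither class. Of the repressed class, the roles above cover Igfbp1, Irs2 and Sesn3 only. Whether insulin lowers the transcripts of Igfbp2, Insr, Foxo1 and Foxo3 was not tested here. FoxO proteins are controlled mainly by phosphorylation, which RNA levels do not measure. Neither feeding state nor the time of day at collection is stated in the labels.

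The stretch just before the transcription start is shown for 4 of the genes whose levels differed most between groups, because the insulin response element of Igfbp1 is a classical FoxO target sequence. RefSeq promoters (GRCm38.p6) were found for 9 of the 10 genes, all but Insr. The 250 bases before the start are printed 5′ to 3′ on the gene's strand, with matches to CAAAACA (the core of the insulin response element) and to CACGTG (an E-box, a sequence bound by clock and other helix-loop-helix factors) on either strand in capitals. They lie at chr11:7197537-7197786 (Igfbp1, plus strand), chr1:82291440-82291689 (Irs1, minus strand), chr8:11008930-11009179 (Irs2, minus strand) and chr9:21835260-21835509 (Angptl8, plus strand).
Igfbp1: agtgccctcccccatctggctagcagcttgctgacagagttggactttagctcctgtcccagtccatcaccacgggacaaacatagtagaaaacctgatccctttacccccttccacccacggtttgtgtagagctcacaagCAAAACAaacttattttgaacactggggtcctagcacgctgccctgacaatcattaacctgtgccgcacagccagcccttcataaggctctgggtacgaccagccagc
Irs1: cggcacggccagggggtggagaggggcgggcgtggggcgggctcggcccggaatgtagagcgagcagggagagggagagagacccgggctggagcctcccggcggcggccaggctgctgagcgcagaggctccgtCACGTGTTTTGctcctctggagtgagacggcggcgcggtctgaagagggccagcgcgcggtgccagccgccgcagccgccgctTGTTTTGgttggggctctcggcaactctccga
Irs2: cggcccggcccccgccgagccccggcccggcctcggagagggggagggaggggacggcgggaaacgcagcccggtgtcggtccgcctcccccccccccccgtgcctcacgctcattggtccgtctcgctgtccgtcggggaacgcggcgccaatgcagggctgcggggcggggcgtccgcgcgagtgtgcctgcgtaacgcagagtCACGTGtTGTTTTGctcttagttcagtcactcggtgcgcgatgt
Angptl8: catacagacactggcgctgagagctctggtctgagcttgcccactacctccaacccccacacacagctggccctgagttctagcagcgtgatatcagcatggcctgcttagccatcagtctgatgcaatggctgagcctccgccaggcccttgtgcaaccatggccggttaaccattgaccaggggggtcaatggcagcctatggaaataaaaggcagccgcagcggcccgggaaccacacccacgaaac

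CAAAACA was found 108 to 102 bases before the start of Igfbp1. It was found on the minus strand 111 to 105 and 32 to 26 bases before the start of Irs1 and 37 to 31 bases before that of Irs2. The E-box lay 115 to 110 bases before the start of Irs1, where its last bases overlap the CAAAACA match, and 44 to 39 bases before that of Irs2. Another E-box match lay 142 to 137 bases before the start of Igfbp2. In windows of 300 bases (250 before and 50 after the start), CAAAACA was in 3 of the 12 promoters of these genes and in 6.28% of all 32851 promoters, and the E-box was in 3 of 12 and in 7.15%. Searches for GTAAACA (forkhead, present in 3.65% of all promoters) and TCACNCCAC (sterol regulatory, 1.24%) found no match in the 12. The Angptl8 window held none of the 4 motifs. These matches are descriptions of letters and not sites of binding.

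All groups had a liver profile. Summed over 7 hepatocyte markers, the level was 58725 to 60630 FPKM in controls, 43778 to 78970 at day 2 and 82375 to 87733 at day 14. The markers did not move together. From controls to day 14, the mean went from 8261 to 20393 FPKM for Apoa1 and from 13776 to 30172 for Apoa2. It went from 30983 to 24949 FPKM for Alb. Means of Ttr and Serpina1a were also higher at day 14, and those of Apob and Hnf4a lower. Of the 5 adipocyte markers, 4 were under 1 FPKM in all libraries and Lep was at 0, and of the 5 exocrine pancreas markers 4 were under 1 FPKM, with Cpa1 and Prss2 at 0. Other cell types differed in level: the 6 neutrophil markers summed to between 4.21 and 7.82 FPKM in controls, 31.8 and 321 at day 2, and 15.7 and 68.0 at day 14, with Ly6g under 1 FPKM throughout. The 6 endothelial markers summed to between 73.7 and 78.2 FPKM in controls, 20.8 and 65.1 at day 2, and 21.7 and 40.0 at day 14, and their part in the results that follow was not tested. Clec4g alone was at 44.4 and 41.9 FPKM in controls. At day 2, Clec4g and Kdr were below both controls in every library, while Pecam1, Cdh5, Stab2 and Lyve1 overlapped with them. The 6 cycling markers summed to 474 and 673 FPKM in day 2 replicates 3 and 4 and to between 2.05 and 11.3 in the other 6 libraries. In bulk tissue, fewer cells of a type and less RNA per cell cannot be told apart. FPKM also moved with transcript length: relative to the control mean, the shortest eighth of genes stood above the longest eighth by 0.80 to 0.93 log2 units at day 2 and by 0.62 and 0.93 at day 14. Insr, Irs1, Foxo1 and Sesn3 have long transcripts and Angptl8 a short one, so changes after removal of the length and GC trend are given beside theirs.

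The secreted IGF-binding protein Igfbp1 varied more than any other gene of the set. Igfbp1 (chr11:7197782-7202546, GENCODE M21) encodes a liver protein that binds insulin-like growth factors and whose transcript falls within hours of insulin. Its level was 85.4 and 222 FPKM in the controls, 552, 1940, 283 and 287 FPKM at day 2 (replicates 1 to 4) and 0.888 and 4.49 FPKM at day 14. Every day 2 library was above both controls, and both day 14 libraries were below all others. The group means were 154 ± 96.5 (SD, n = 2), 765 ± 793 (n = 4) and 2.69 ± 2.55 FPKM (n = 2). The mean at day 14 was thus 57.1 times lower than in controls and 284 times lower than at day 2. On the scale of log2(FPKM + 1), the difference of Igfbp1 from control was 1.97 ± 0.83 (SE) at day 2, which was not called, and -5.43 ± 0.96 at day 14, and that from day 2 to day 14 was -7.40 ± 0.83. Among all genes tested, Igfbp1 stood at percentile 11.2 in day 14 replicate 1 and at percentile 42.0 in replicate 2.

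Igfbp2, a related binding protein made by fasted liver, did not share this course. Its level was 296 and 239 FPKM in controls, 307, 840, 231 and 356 FPKM at day 2, and 252 and 507 FPKM at day 14. The groups overlapped in every comparison, and day 2 replicate 2 was the highest library for both Igfbp1 and Igfbp2. The log2 change of (FPKM + 1) for Igfbp2 was 0.52 ± 0.52 at day 2 and 0.42 ± 0.60 at day 14 against control, and both values turned sign once the length and GC trend was removed (-0.06 and -0.15).

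**Figure D1:**
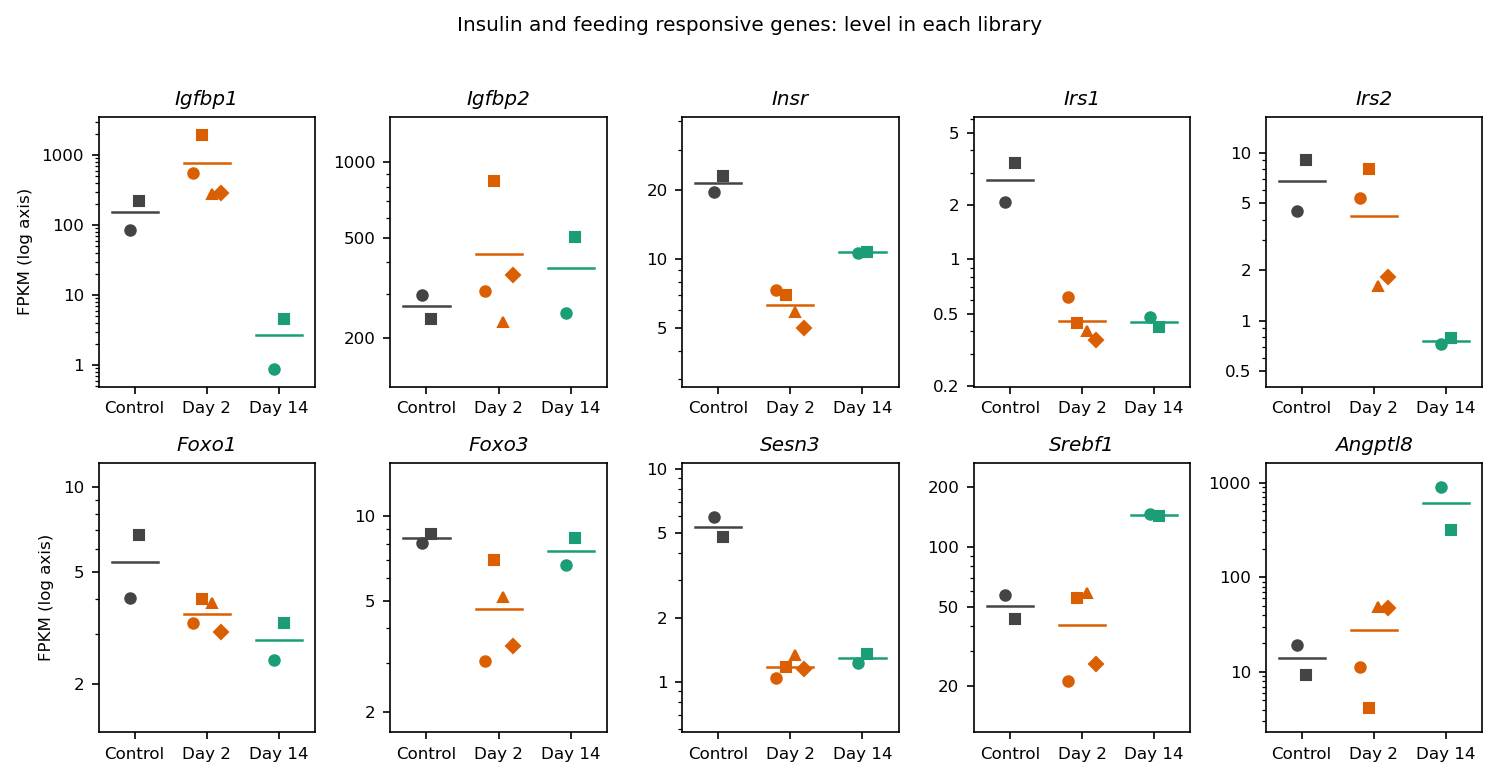
Level of each of the 10 genes in every library, in FPKM on log axes that differ between panels. Points are libraries (circle, square, triangle and diamond for replicates 1 to 4) and lines are group means; Igfbp1 and Irs2 are lowest and Srebf1 and Angptl8 highest in both day 14 libraries.

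The receptor and the adaptor Irs1 were called lower than control at both times. Irs2 was called at neither, though both day 14 libraries were below both controls. Insr (chr8:3122061-3279617), the insulin receptor, was at 19.7 and 23.1 FPKM in controls, 7.38, 6.99, 5.90 and 5.03 FPKM at day 2, and 10.7 and 10.8 FPKM at day 14. The 3 groups did not overlap: day 2 was lowest and day 14 lay between. Its mean was 3.38 times lower than control at day 2 and 1.99 times lower at day 14. The log2 change at day 2 was -1.62 ± 0.21, and -1.18 ± 0.20 once the length and GC trend was removed. At day 14 it was -0.93 ± 0.24, and -0.55 ± 0.23 without that trend.

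Irs1 (chr1:82233101-82291416) encodes an adaptor that links the receptor to PI3-kinase. Irs1 was at 2.08 and 3.39 FPKM in controls, 0.619, 0.446, 0.402 and 0.357 FPKM at day 2, and 0.479 and 0.422 FPKM at day 14. Both controls were above all 6 libraries taken after surgery, and days 2 and 14 overlapped. Irs1 reached 1 FPKM only in the 2 controls and so passed the low-value filter through that group alone, which means it had to differ. Its log2 change was -1.34 ± 0.22 at day 2 and -1.34 ± 0.25 at day 14 against control, and -1.05 and -1.07 without the length and GC trend. Of its 9144 exon bases, 2822 are shared with Gm9747 on the opposite strand, which was at 2.26 to 5.61 FPKM. No source used here says that strand was used in counting, so reads of the pair cannot be told apart there.

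Irs2 (chr8:10984681-11008458), the adaptor that is itself a FoxO target, separated the day 2 libraries. Irs2 was at 4.47 and 9.04 FPKM in controls, 5.34, 7.96, 1.6 and 1.82 FPKM at day 2, and 0.729 and 0.787 FPKM at day 14. Day 2 replicates 1 and 2 lay within the control range, replicates 3 and 4 lay below it, and day 14 was below every other library. The mean at day 14 was 8.92 times lower than in controls (log2 change -2.08 ± 0.60) and 5.52 times lower than at day 2 (-1.36 ± 0.52). Neither change was called. In a fit of the control and day 14 libraries alone, the change from control was called (limma adjusted p = 0.0169). It was also called without day 2 replicate 2 (limma adjusted p = 0.031). Day 2 replicates 3 and 4 are the libraries with the high cycling markers; whether that bears on Irs2 was not tested.

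Foxo1 and Foxo3 were called in none of the 3 comparisons. Foxo4, a FoxO factor outside the set, was called lower at day 2 (log2 change -1.03 ± 0.23). That call was lost when either control library was left out, which leaves 1 library in that group. Foxo1, the main FoxO of hepatocytes, was at 4.05 and 6.73 FPKM in controls, 3.28, 4, 3.86 and 3.07 FPKM at day 2, and 2.43 and 3.30 FPKM at day 14. All 6 later libraries were below both controls, but the log2 change at day 2, -0.46 ± 0.23, was -0.10 once the length and GC trend was removed. At day 14 its mean was 1.88 times lower than in controls (log2 change -0.70 ± 0.27, and -0.37 without that trend). Foxo3, a second FoxO with overlapping targets, was at 8.06 and 8.62 FPKM in controls, 3.04, 6.97, 5.14 and 3.44 FPKM at day 2, and 6.68 and 8.37 FPKM at day 14. Every day 2 library was below both controls, and the day 14 libraries overlapped with the controls. The day 2 mean was 1.79 times lower (log2 change -0.78 ± 0.29, and -0.69 without the trend), and without day 2 replicate 2 Foxo3 was called at day 2 (-0.96) and from day 2 to day 14 (0.82).

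Sesn3 (chr9:14275067-14333101) encodes a sestrin, a stress protein that restrains mTORC1 and is switched on by FoxO. Sesn3 was at 5.90 and 4.77 FPKM in controls, 1.04, 1.17, 1.34 and 1.15 FPKM at day 2, and 1.22 and 1.35 FPKM at day 14. Both controls were above all 6 libraries taken after surgery, which stayed within a narrow band. The mean was 4.54 times lower at day 2 and 4.14 times lower at day 14. The log2 changes were -1.54 ± 0.19 and -1.46 ± 0.21, and -1.05 and -1.07 without the length and GC trend.

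Srebf1 and Angptl8, the 2 insulin-induced genes of the set, were highest at day 14. Srebf1 (chr11:60199089-60222581), which encodes SREBP-1, was at 57.6 and 43.7 FPKM in controls, 21.2, 55.5, 59.1 and 26.0 FPKM at day 2, and 146 and 143 FPKM at day 14. Both day 14 libraries were above all others, while day 2 overlapped with the controls. The day 14 mean was 2.85 times the control mean (log2 change 1.5 ± 0.50) and 3.57 times the day 2 mean (1.94 ± 0.43). The change from day 2 was called and that from control was not (limma adjusted p = 0.0889). In a fit of the control and day 14 libraries alone, the change from control was called (limma adjusted p = 0.0172). The table gives 1 value for the gene, so the SREBP-1a and SREBP-1c transcripts were not told apart.

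Angptl8 (chr9:21835510-21837347) had the largest rise of the set. Angptl8 was at 19.2 and 9.18 FPKM in controls, 11.3, 4.13, 48.4 and 46.9 FPKM at day 2, and 896 and 320 FPKM at day 14. Day 2 replicates 3 and 4 were above the controls, replicate 2 was below them, and both day 14 libraries were far above all others. The day 14 mean was 42.8 times the control mean (log2 change 5.23 ± 1.08) and 22.0 times the day 2 mean (4.77 ± 0.93). Without the length and GC trend the changes were 4.53 and 4.75. The gene lies within Dock6 on the opposite strand and shares no exon base with it. Dock6 was at 6.04 and 3.61 FPKM at day 14 and at 1.53 to 2.62 FPKM in the other libraries, far below Angptl8 at day 14.

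**Figure D2:**
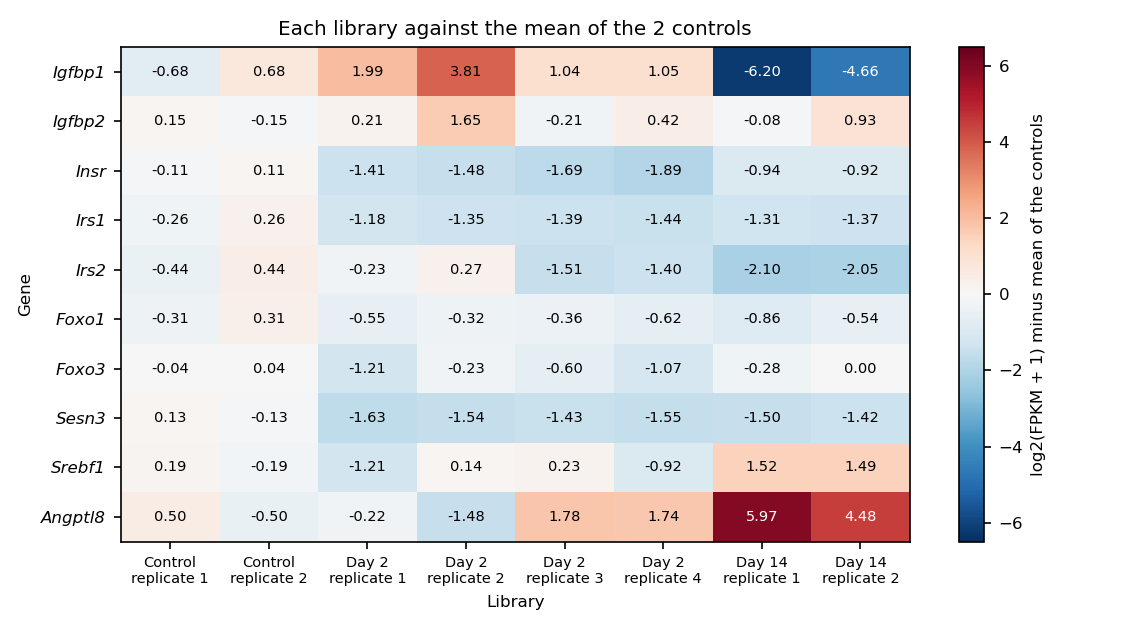
Difference of log2(FPKM + 1) between each library (columns) and the mean of the 2 controls, for the 10 genes (rows), with the value printed in each cell and blue for lower, red for higher. Day 2 replicates 3 and 4 differ from replicates 1 and 2 in Irs2 and Angptl8, and the day 14 libraries reach -6.20 for Igfbp1 and 5.97 for Angptl8.

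All 10 genes passed the low-value filter and were tested by limma, on log2(FPKM + 1) over the 12340 genes that reached 1 FPKM in 2 or more libraries, and a call meant an adjusted p (Benjamini-Hochberg) below 0.05. At day 2 against control, 3 of the 10 were called (Insr, Irs1 and Sesn3, all lower), where 11.5% of all genes tested were called lower and 9.72% higher. At day 14 against control, 4 were called lower (Igfbp1, Insr, Irs1 and Sesn3) and Angptl8 higher, against 4.58% and 5.21% of all genes. At day 14 against day 2, Igfbp1 was called lower and Srebf1 and Angptl8 higher, against 7.03% and 9.09%. Since the set was chosen on these contrasts, nothing is read from these counts. The 2 comparisons with control share the control libraries, and each was adjusted on its own. At day 14 against control, removal of the length and GC trend ended the calls of Insr, Irs1 and Angptl8. All calls of the set in this comparison were lost when either control library or day 14 replicate 1 was left out. Such fits leave 1 library in a group and call few genes of any kind, so these losses are not particular to the set. In the fits without 1 library, the change ranged from -6.20 to -4.66 (Igfbp1), -1.04 to -0.82 (Insr), -1.37 to -1.31 (Irs1), -1.59 to -1.33 (Sesn3) and 4.48 to 5.97 (Angptl8). Tallies of alternatives here and below include such fits. The call of Insr was lost in 11 of 16 alternatives, with the pseudocount of 0.1, with no filter and without the mean-variance trend among them, and that of Angptl8 in 6, with no filter and without day 14 replicate 2 among them. Leaving out either control also ended the calls of Insr, Irs1 and Sesn3 at day 2 (Irs1 was then under the filter). Leaving out day 14 replicate 1 ended those of Igfbp1, Srebf1 and Angptl8 from day 2 to day 14. Without day 14 replicate 2, the call of Srebf1 from day 2 to day 14 was lost too. So were those of Insr, Irs1 and Angptl8 at day 14 against control.

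**Figure D3:**
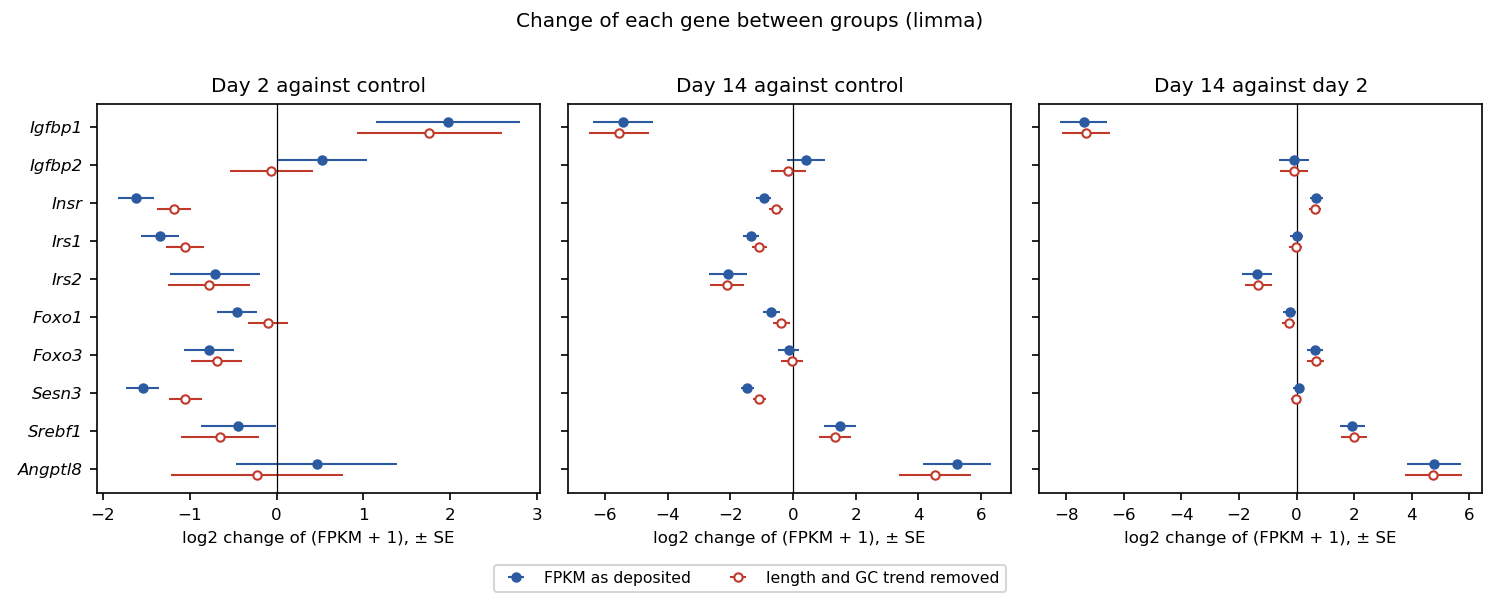
The log2 change of (FPKM + 1) of each of the 10 genes in 3 comparisons, with bars of ± 1 SE from limma; filled points are FPKM as deposited and open points are after removal of the length and GC trend. The horizontal scales differ between panels. The largest fall is -7.40 for Igfbp1 (day 14 against day 2) and the largest rise 5.23 for Angptl8 (day 14 against control).

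Set side by side, the insulin-repressed and insulin-induced genes of the set differed most at day 14. The median log2 change against control of the 7 repressed genes was -0.93 at day 14, and that of the 2 induced genes was 3.37. This contrast rests on 7 and 2 genes chosen on these data, and the wider lists did not show it: in the same comparison the median was -0.37 over 19 other insulin-repressed genes and -0.21 over 17 other insulin-induced genes. At day 2 the medians were -0.71 and 0.01. From day 2 to day 14 they were -0.09 and 3.36, where all genes tested had a median of -0.03. Per library, relative to the control mean, the repressed median minus the induced median was -0.45 and 0.45 in the controls. It was 0.17, 0.44, -1.61 and -1.48 in day 2 replicates 1 to 4, and -4.68 and -3.91 at day 14. By this difference the day 2 libraries fell in 2 pairs. Replicates 1 and 2 were in the control range and replicates 3 and 4 below it. The induced median is that of 2 genes, and 1 of them, Angptl8, showed the pairs. Relative to the control mean, Angptl8 was at -0.22, -1.48, 1.78 and 1.74 in day 2 replicates 1 to 4. Srebf1 did not show them, at -1.21, 0.14, 0.23 and -0.92. Nor did the repressed median, at -0.55, -0.23, -0.60 and -1.07. The day 2 difference between classes, -0.72, became 0.06 without control replicate 2. Within the repressed class the course was not shared: Igfbp1 was above control in all day 2 libraries while Insr and Sesn3 were below it in all.

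The ratio of Igfbp1 to Angptl8, both per length, sets the gene with the largest fall of the set against that with the largest rise. Both were chosen on these data, so the ratio is a description only. The ratio was 4.44 and 24.2 in controls and 48.6, 470, 5.85 and 6.11 in day 2 replicates 1 to 4. At day 14 the order of the 2 genes was turned, with Angptl8 1009 and 71.2 times above Igfbp1. By level, Angptl8 ranked 1 and 2 among the 10 genes in day 14 replicates 1 and 2, and Igfbp1 ranked 8 and 6. In controls, the order by mean level in FPKM was Igfbp2, Igfbp1, Srebf1, Insr, Angptl8, Foxo3, Irs2, Foxo1, Sesn3 and Irs1. In that order the control ranges of Foxo3 and Irs2, of Irs2 and Foxo1, and of Foxo1 and Sesn3 overlapped.

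**Figure D4:**
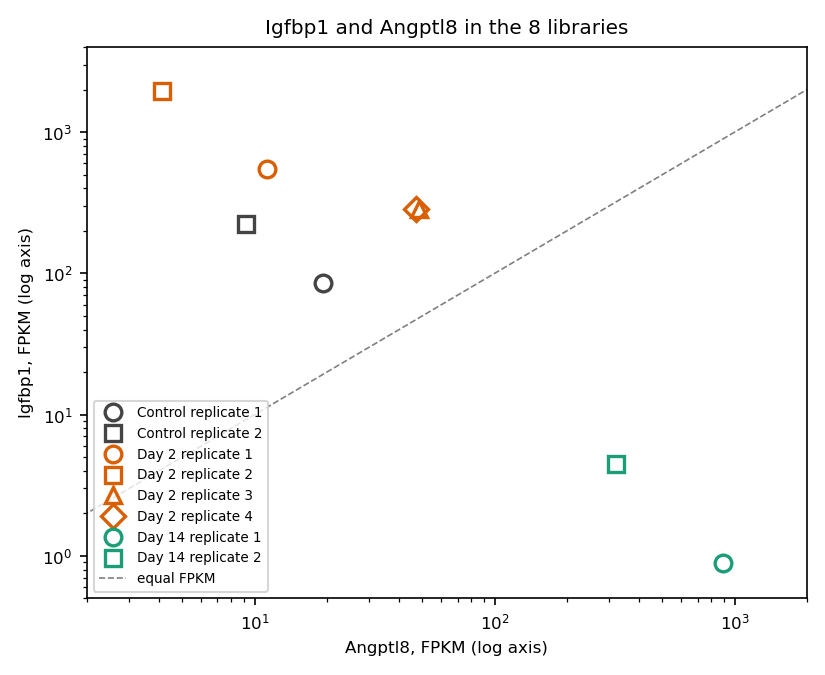
Igfbp1 against Angptl8 in FPKM, both on log axes, with 1 symbol for each library (colour for group, shape for replicate) and a dashed line where the levels are equal. The 2 day 14 libraries lie below the line and the other 6 above it.

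Other genes of the pathway were taken from 7 lists by role, 105 genes in all, of which 95 were tested. At day 2 against control 4 of the 95 were called higher and 13 lower, with a median log2 change of -0.29 against 0.05 over all genes. At day 14 against control the counts were 4 and 5 (median -0.25), and at day 14 against day 2 they were 9 and 3 (median 0.04). The lists were drawn up with earlier results of these data known, so the counts are descriptions, to be read beside the shares of all genes given above. Of the 17 called at day 2, only Ceacam1 was still called when either control library was left out, and leaving out day 14 replicate 1 ended all calls in both day 14 comparisons. Leaving out either control also ended all calls at day 14 against control. These losses apply to the calls named next, with Ceacam1 at day 2 as the exception. Those fits leave 1 library in a group and lost most calls over all genes too, so the losses are not particular to these genes. Without day 14 replicate 2, the calls of Trib1, Gpam and Insig2 at day 14 against control were lost too. So were those of Klf15, Thrsp, Igfals, Lipc and Sesn2 from day 2 to day 14.

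Among 34 signalling genes, 4 were called higher and 5 lower at day 2. Ceacam1, which promotes insulin clearance by the liver, was at 54.5 and 57.9 FPKM in controls, 11.6, 13.4, 13.0 and 9.97 FPKM at day 2, and 18.1 and 19.3 FPKM at day 14. It fell by 2.14 ± 0.20 on the log2 scale at day 2 (limma adjusted p = 0.00168) and by 1.54 ± 0.23 at day 14 (limma adjusted p = 0.02), and no library after surgery reached the controls. Socs3, an inhibitor induced by cytokines that also blunts insulin signalling, rose by 3.13 ± 0.57 at day 2 (limma adjusted p = 0.0103), from 2.64 and 3.22 FPKM to between 12.8 and 71.7 FPKM. The neutrophil markers were higher in the same libraries, and their part in it was not tested. Eif4ebp1, a translation inhibitor downstream of mTORC1, rose by 1.30 ± 0.31 at day 2 (limma adjusted p = 0.0251) and fell by 1.29 ± 0.31 from day 2 to day 14 (limma adjusted p = 0.0310). At day 14 against control, Inppl1, a lipid phosphatase of the pathway, rose by 1.16 ± 0.27 (limma adjusted p = 0.0400) and Trib1, a pseudokinase, by 1.00 ± 0.23 (limma adjusted p = 0.0379). Neither call held throughout: that of Inppl1 was lost in 7 of 16 alternatives, removal of the length and GC trend (adjusted p = 0.0649) and no filter (0.0598) among them, and that of Trib1 in 6, all of them fits without 1 library. The fall of Eif4ebp1 from day 2 to day 14 was lost in 6, no filter and the fit of the compared groups alone among them.

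Of the 19 other genes that insulin represses, only G6pc was called at day 2 and none at day 14 against control. G6pc, the catalytic subunit that releases glucose from its phosphate, was at 454 and 557 FPKM in controls, 45.7, 8.47, 6.44 and 51.8 FPKM at day 2, and 117 and 96.0 FPKM at day 14. It fell by 4.62 ± 0.81 at day 2 (limma adjusted p = 0.00912), in the libraries in which Igfbp1 was above control. Pck1, the other gene of glucose production named by the rule, was at 1038 and 1389 FPKM in controls, 620 to 1610 FPKM at day 2, and 1484 and 1318 FPKM at day 14, and the groups overlapped. Klf15, a fasting-induced transcription factor, was at 63.0 and 90.1 FPKM in controls, 19.3 to 50.9 FPKM at day 2, and 104 and 98.1 FPKM at day 14, and rose from day 2 to day 14 by 1.67 ± 0.39 (limma adjusted p = 0.0279), a call lost in 7 of 16 alternatives, no filter among them.

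Of the 17 other genes that insulin induces, 3 were called lower at day 2 (median log2 change -0.68) and 3 higher from day 2 to day 14 (median 0.28). At day 14 against control the only call was of Gpam, which was lower and the median was -0.21, below the 1.5 of Srebf1 and the 5.23 of Angptl8. Thrsp, a lipogenic nuclear protein, was at 188 and 80.5 FPKM in controls, 13.4, 17.5, 134 and 6.86 FPKM at day 2, and 551 and 972 FPKM at day 14, and rose from day 2 by 4.99 ± 1.00 (limma adjusted p = 0.0170). Mlxipl encodes ChREBP, the carbohydrate-responsive activator of lipogenic genes. Mlxipl was at 140 and 130 FPKM in controls, 25.2, 32.1, 59.2 and 60.1 FPKM at day 2, and 398 and 197 FPKM at day 14. It fell by 1.69 ± 0.43 at day 2 (limma adjusted p = 0.0301) and rose by 2.74 ± 0.43 from day 2 to day 14 (limma adjusted p = 0.00855), the latter named after its values were seen. The fall of Mlxipl at day 2 was lost with no filter and without day 2 replicate 1. Gpam, which starts triglyceride synthesis, did not share the rise: it fell by 1.75 ± 0.42 at day 2 (limma adjusted p = 0.0245) and by 2.04 ± 0.49 at day 14 against control (limma adjusted p = 0.0410). The call of Gpam at day 14 was lost without the length and GC trend (adjusted p = 0.068) and, as at day 2, with no filter (0.0763 at day 14). Scd1, the stearoyl-CoA desaturase, was at 1042 and 867 FPKM in controls, 23.4, 47.9, 1092 and 16.7 FPKM at day 2, and 259 and 528 FPKM at day 14, and was not called. That rested on day 2 replicate 3: without it, Scd1 was called lower at day 2 (log2 change -5.11, limma adjusted p = 0.00186) and higher from day 2 to day 14 (3.75, limma adjusted p = 0.00528).

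**Figure D5:**
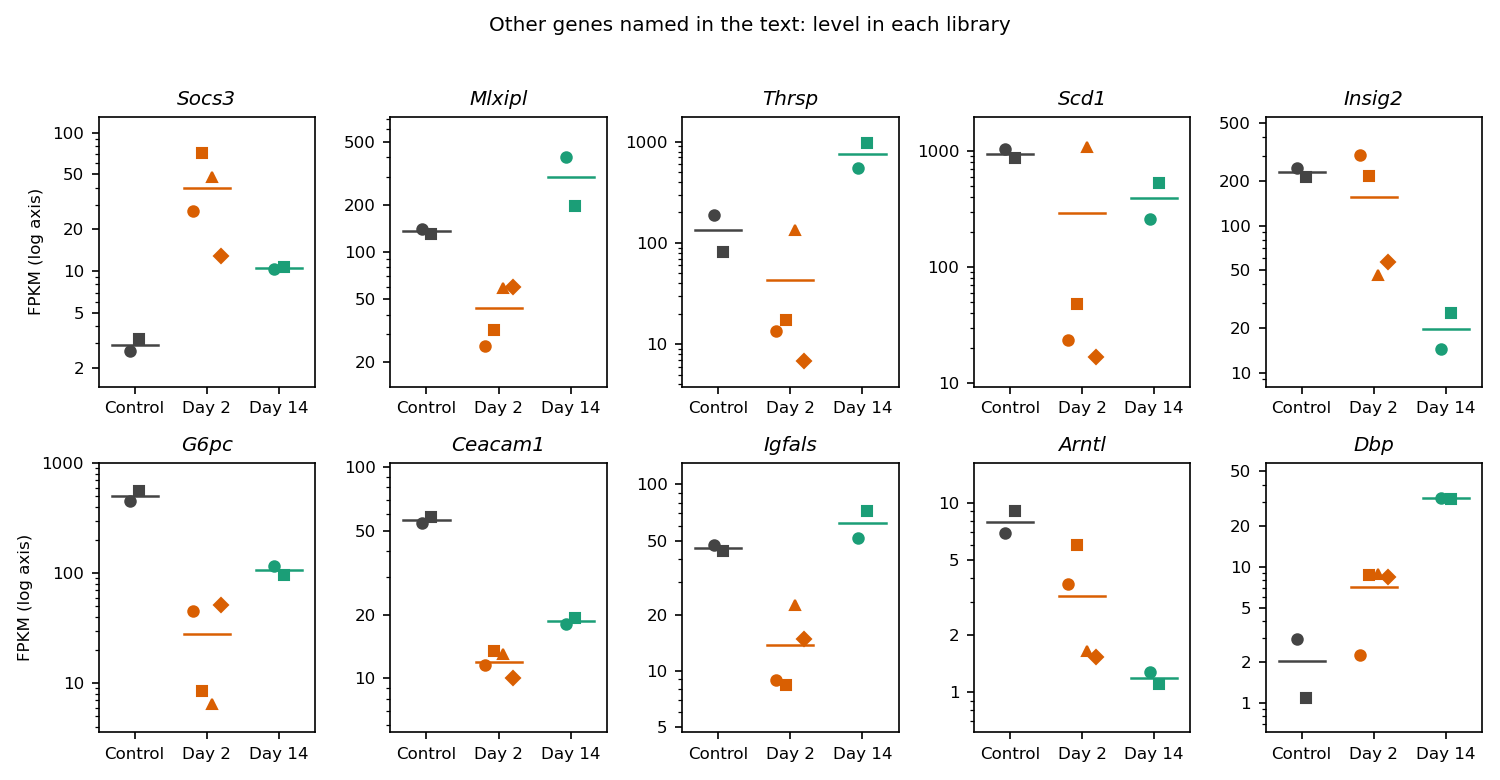
Level in FPKM, on log axes that differ between panels, of 10 other genes named in the text. Points are libraries (shape for replicate) and lines are group means; Mlxipl, Thrsp and Dbp are highest and Insig2 and Arntl lowest in the day 14 libraries.

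The smaller lists held the partners of the 10 genes. Of 8 genes of SREBP processing, only Insig2 was called, at day 14 against control. Insig2, which retains SREBP in the endoplasmic reticulum and has a liver transcript that insulin lowers, was at 248 and 213 FPKM in controls, 304, 218, 46.0 and 56.2 FPKM at day 2, and 14.5 and 25.4 FPKM at day 14. As for Irs2, day 2 replicates 3 and 4 were the lower pair. Insig2 fell by 3.51 ± 0.87 at day 14 (limma adjusted p = 0.0447), and the call was lost without the length and GC trend (adjusted p = 0.0715) and with no filter (0.0882). Lipc, hepatic lipase, fell by 2.27 ± 0.28 at day 2 (limma adjusted p = 0.00337) and rose by 1.46 ± 0.28 from day 2 to day 14 (limma adjusted p = 0.0159), staying below the controls in both day 14 libraries.

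Among 6 carriers of insulin-like growth factors, 3 were called lower at day 2 and 2 higher from day 2 to day 14. Igfals, the acid-labile subunit that stabilises circulating IGF complexes, was at 47.3 and 44.2 FPKM in controls, 8.93 to 22.6 FPKM at day 2, and 51.8 and 72.3 FPKM at day 14. It fell by 1.77 ± 0.39 at day 2 (limma adjusted p = 0.0177) and rose by 2.18 ± 0.39 thereafter (limma adjusted p = 0.0123). Igf1, the growth factor these proteins carry, was at 448 and 410 FPKM in controls, 436 to 678 FPKM at day 2, and 972 and 784 FPKM at day 14, with a change of 1.03 ± 0.31 at day 14 against control that did not pass (limma adjusted p = 0.0719). Among 4 genes around the sestrins, Sesn2 was the 1 called, lower at day 14 than at day 2 by 0.77 ± 0.21 (limma adjusted p = 0.0455), a call lost in 10 of 15 alternatives, no filter (0.0915), removal of the length and GC trend (0.0653) and the fit of the compared groups alone (0.0851) among them. Sesn1 was at 4.34 and 4.45 FPKM in controls and 1.72 to 3.77 FPKM in the 6 later libraries, below both controls as Sesn3 was, and was not called.

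The genes with the most similar pattern were found by the mean absolute difference, over the 8 libraries, of log2(FPKM + 1) profiles centred on their own means. For Igfbp1 they were Serpina3m (1.35), Gm20412 (1.35) and Cdkn1a (1.39), a distance that leaves them far from a match. For Sesn3 they included Cdc14b (0.10) and F8 (0.11), and for Srebf1 they were Mcee (0.27), Nat6 (0.29) and Rps19-ps3 (0.29). For Irs2 they were Slc4a4 (0.24), Arntl (0.27) and Tmem56 (0.28), and for Angptl8 they were Tnnc1 (0.73), Dbp (0.91) and Snora57 (0.94). Arntl and Dbp are genes of the circadian clock. Arntl was at 6.91 and 8.98 FPKM in controls, 3.70, 6.00, 1.64 and 1.52 FPKM at day 2, and 1.27 and 1.10 FPKM at day 14. Dbp was at 2.96 and 1.10 FPKM in controls, 2.25, 8.78, 8.80 and 8.40 FPKM at day 2, and 32.0 and 31.5 FPKM at day 14. Arntl was lowest, and Dbp highest, in the day 14 libraries, in which Irs2 was lowest and Angptl8 highest. Both were found by their likeness to these genes, so this match follows from the search. It was loose for Dbp: in day 2 replicate 2 Dbp was at 8.78 FPKM and Angptl8 at 4.13 FPKM, its lowest level. The part of collection time in this was not tested.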

How the data were processed

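Liver RNA was sequenced from 8 libraries after a TruSeq preparation, per the labels' protocols. The deposited values are gene-level FPKM. The submitters' processing notes name the tools DESeq2, HTSeq, Cufflinks 2.2.1 and HISAT2 2.10 and 2 builds, mm9 and GRCm38, without saying which made the table. Its annotation is not given in the sources used here. Read counts are unknown, so no counting interval was computed. Relative depth, from the steps of low values, ranged from 0.63 to 1.14 of the first control.

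Libraries were grouped by label. Day 2 replicate 1 is titled day 1 but labelled day 2 by age, and the title of day 2 replicate 3 adds letters whose meaning is not given. One model with 3 group means was fitted to log2(FPKM + 1) for genes that reached 1 FPKM in 2 or more libraries (limma 3.58.1, R 4.3.3). The variance prior followed mean level, with 3.23 prior and 5 residual degrees of freedom, and the script was tested on simulated data. Fold changes on this scale understate changes of low genes. Coordinates and lengths are from GENCODE M21 on GRCm38.

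The 10 genes and the lists were chosen with earlier results of these data known. Other genes were named by rule: from each list the 2 called genes with the largest rise and fall, otherwise the most abundant, plus 17 fixed genes. The settings varied were the pseudocount (0.1), the filter (none, 5 FPKM), the scaling (quantile, median-ratio), a fit of the compared groups alone, limma without its trend, removal of the length and GC trend in each library, and leaving out each library. Castor1 and Tf were not analysed here, and some genes named by the rule are not reported here.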

Additional observations from a re-analysis of the deposited data

Results flagged for a closer look

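Igfbp1 lay on opposite sides of the controls at the 2 times, though its day 2 difference from control (1.97 on the log2 scale) was not called. All 4 day 2 libraries were above both controls and both day 14 libraries were below them, with a log2 change of -7.40 ± 0.83 (SE) from day 2 to day 14. That comparison is itself the difference between the 2 changes against the shared controls, and it is given as a description because Igfbp1 was chosen on these data. No single day 2 library of the 10 genes stood apart by Dixon's gap criterion for 4 values, in 20 gaps examined.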

How the results depend on the processing

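Depth limits low genes most, such as Irs1, and groups of 2 libraries limit every comparison. Without 1 library at a time, the genes called ranged from 92 to 2971 (2620 with all) at day 2 against control, from 0 to 2097 (1208) at day 14 against control and from 17 to 2472 (1990) at day 14 against day 2. The lowest counts came without a control library (92 and 96 at day 2, 1 and 1 at day 14) or without day 14 replicate 1 (0 against control by limma, where 2099 genes had an unadjusted p under 0.05, and 17 against day 2). The number called of the 10 genes ranged from 0 to 4 (3 with all), 0 to 6 (5) and 0 to 5 (3) in the same order, and of the other pathway genes from 1 to 23 (17), 0 to 13 (9) and 0 to 16 (12). Removal of the length and GC trend gave 1739 calls at day 2 and 508 at day 14 against control, with 2 of the 10 genes and 3 pathway genes called in the latter. With no filter, 691 genes, 3 of the 10 and 4 pathway genes were called at day 14 against control, and 7 pathway genes at day 14 against day 2. A filter at 5 FPKM tested fewer of the 10 genes and called 1 at day 2 and 3 at day 14 against control. When the fit held the compared groups alone, 3239 genes and 34 pathway genes were called at day 14 against control, and 996 and 5 at day 14 against day 2. Other than by the filter at 5 FPKM and by leaving out libraries, the cause of these moves was not tested. The difference between classes at day 2, which ranged from -1.20 to 0.06 without 1 library, turned sign without control replicate 2. It ranged from -4.75 to -3.84 at day 14 against control and from -4.13 to -2.87 at day 14 against day 2.

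Changes that turned sign were all of genes not called. Without the length and GC trend they were Igfbp2 (-0.06 at day 2, -0.15 at day 14 against control), Angptl8 at day 2 (-0.22), Mki67 at day 14 against control (0.25) and Sesn3 from day 2 to day 14 (-0.02). With quantile scaling they were Igf1 at day 2 (-0.11), Pck1 at day 14 against control (-0.04), Irs1 (0.00) and Alb (-0.46) from day 2 to day 14, and with a pseudocount of 0.1 Irs1 from day 2 to day 14 (0.00). Over the fits without 1 library, those that crossed 0 ranged, at day 2, from -0.04 to 1.10 (Angptl8), -0.20 to 0.53 (Fasn) and -0.42 to 0.06 (Nprl2), and at day 14 against control from -0.08 to 0.93 (Igfbp2) and -0.28 to 0.00 (Foxo3). From day 2 to day 14 they ranged from -0.60 to 0.41 (Igfbp2), -0.04 to 0.05 (Irs1), -0.31 to 0.11 (Ppargc1a) and -0.06 to 0.41 (Alb). No paired analysis was made. The replicate numbers of the day 2 and day 14 libraries were given in accession order and pair no library with another. The titles of day 2 replicate 1 and day 14 replicate 1 begin with the same number, and the labels do not say what it means.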
